A study of Mus musculus with 12 samples.

Results

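Dgka, Dgkz, Rasgrp1, Rasa2 and Rasal3 are 5 genes of lipid-controlled Ras signalling. They were chosen by name, as the rows of the expression table that carry these symbols, and all 5 were found among its 13283 genes. Their usual heading, diacylglycerol kinases and Ras activators, fits 3 of them: Dgka and Dgkz encode diacylglycerol kinases and Rasgrp1 encodes a Ras activator, whereas Rasa2 and Rasal3 encode GTPase-activating proteins, which switch Ras off. RNA sequencing measured their mRNA in mouse cytotoxic T lymphocytes (CTL), effector CD8 T cells from female mice that were activated for 48 h through CD3 and CD28 and then grown with IL-12 (2 ng/mL) and IL-2 (20 ng/mL). WT CTL were GzmB cre+ and kept an intact Foxo1, and FOXO1-GFP KO CTL were FOXO1-GFPfl/fl Gzmb cre+, in which Cre removes the floxed Foxo1-GFP exon. Every group, the controls included, therefore carried a Cre recombinase under the granzyme B promoter, which is switched on in effector T cells. Each genotype received either DMSO (groups WT and FOXO1-GFP KO) or 10 µM IC87114 for 24 h (groups WT+PI3Kdi and FOXO1-GFP KO+PI3Kdi), and each of the 4 groups held 3 libraries, 12 in all. IC87114 inhibits p110δ, the PI3K catalytic subunit that dominates in lymphocytes. FOXO1-GFP KO CTL had been sorted as CD8+ GFP- cells and WT CTL as CD8+ cells, so the sort and the genotype cannot be told apart.

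When the T cell receptor is engaged, phospholipase C produces diacylglycerol, a membrane lipid that recruits RASGRP1. RASGRP1 loads Ras with GTP, which starts the RAF-MEK-ERK cascade. Diacylglycerol kinases end the signal by phosphorylating diacylglycerol to phosphatidic acid, and Ras GTPase-activating proteins end it by speeding up GTP hydrolysis; DGKα and DGKζ are best known in T cells as brakes on receptor signalling. FOXO1 is a transcription factor that PI3K signalling, through AKT, keeps out of the nucleus.

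The libraries had an estimated depth of 12.9 to 48.0 M reads (1 M is 1e6), an effective size worked out from the FPKM values. Expression is given as FPKM, reads per kilobase of exon and per M reads after the authors' scaling. The length counts all annotated exon bases of a gene, so levels of different genes compare only roughly. Foxo1, which checks the genotype labels, was between 5.77 and 10.5 FPKM in the 6 WT libraries and between 0.58 and 1.75 FPKM in the 6 FOXO1-GFP KO libraries. All 9 CD8 T cell markers examined, among them Cd8a, Cd3e and Gzmb, were present in the table and together summed to between 8697 and 12660 FPKM in a library. Gzmb made up most of this sum, with group means of 8305 to 9820 FPKM. In bulk RNA, fewer cells that express a gene and less RNA per cell cannot be told apart.

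The members differed widely in level. Ranked by the mean of a group, Rasal3 was the most abundant in all 4 groups, at 55.9 to 62.0 FPKM. Rasa2 was the least abundant, at 3.28 to 5.26 FPKM. In WT CTL the order from the top was Rasal3 (55.9 ± 4.39 FPKM, SD, n = 3), Rasgrp1 (50.6 ± 14.4), Dgkz (37.9 ± 1.20), Dgka (29.7 ± 0.30) and Rasa2 (5.26 ± 1.74). The libraries of Rasal3 and Rasgrp1 overlapped, and those of Rasgrp1, Dgkz, Dgka and Rasa2 did not. With PI3Kdi, Dgka moved to second place in WT CTL, at 54.9 ± 6.04 FPKM, although its libraries overlapped those of Rasal3 and Rasgrp1. In both FOXO1-GFP KO groups Dgka stayed below Dgkz, at 15.6 ± 5.08 FPKM without and 21.5 ± 5.82 FPKM with PI3Kdi. Relative to all genes of a library, Dgka lay between percentiles 70.5 and 93.4, Dgkz between 86.8 and 90.1 and Rasa2 between 34.9 and 57.4. Rasgrp1 and Rasal3 were never below percentile 89.8. No member rested on fewer than an estimated 634 reads in a library, so counting error was at most 3.97% and the spread between libraries set the precision.

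**Figure D1:**
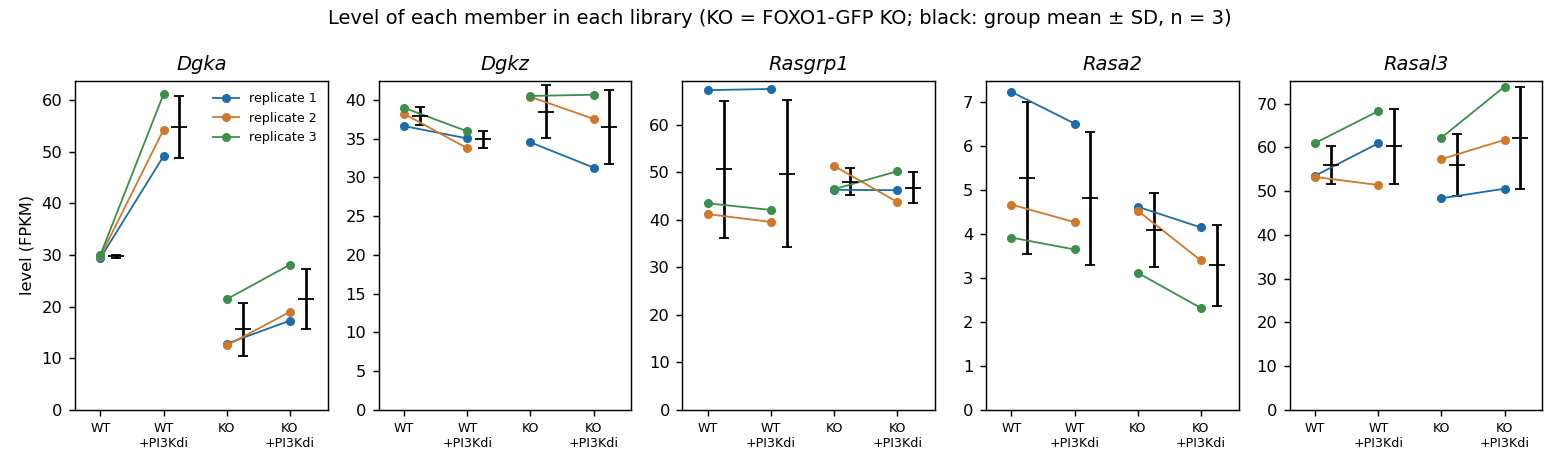
Level in FPKM (vertical axes, from 0) of each member in each of the 12 libraries; lines join the vehicle and PI3Kdi libraries of a replicate number, and black bars show the group mean ± SD (n = 3). Dgka separates the WT from the FOXO1-GFP KO libraries and rises along every line, whereas for Rasgrp1 and Rasa2 the widest gap is that between WT replicate 1 and the other WT replicates.

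Dgka, which encodes DGKα, lies on chromosome 10 from 128720134 to 128744855 (GRCm38, minus strand). In WT CTL it was 29.4, 29.7 and 30.01 FPKM in replicates 1 to 3, and in WT+PI3Kdi CTL 49.2, 54.3 and 61.2 FPKM. FOXO1-GFP KO CTL had 12.8, 12.5 and 21.4 FPKM, which became 17.3, 19.0 and 28.1 FPKM under PI3Kdi. The lowest WT library was above the highest FOXO1-GFP KO library, whatever the treatment, and the 4 groups ranked FOXO1-GFP KO, FOXO1-GFP KO+PI3Kdi, WT and WT+PI3Kdi. The first pair of neighbours in that order overlapped, and the others did not. Across all 12 libraries Dgka varied 4.91-fold, against 3.13-fold for Rasa2, 1.71-fold for Rasgrp1, 1.53-fold for Rasal3 and 1.301-fold for Dgkz.

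RefSeq gives 4 start sites for Dgka, and the DNA just before them is shown because Dgka was the member that followed the Foxo1 genotype. The 3 sequences below are the 250 bases before a start site, from GRCm38.p6, read 5′ to 3′ on the minus strand, and none overlaps an exon of GENCODE M21. Capitals mark AAACA or, on the other strand, TGTTT, the core shared by forkhead motifs, which was searched after the members' values were known. The first stretch lies upstream of all annotated Dgka transcripts, the second ends 1 base from a GENCODE transcript start, and the third lies in an intron.
Dgka, chr10:128745085-128745334: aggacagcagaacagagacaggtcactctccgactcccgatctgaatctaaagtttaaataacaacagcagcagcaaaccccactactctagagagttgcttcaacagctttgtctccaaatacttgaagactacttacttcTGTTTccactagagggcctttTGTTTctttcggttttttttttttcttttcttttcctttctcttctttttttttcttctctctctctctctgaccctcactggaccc
Dgka, chr10:128744077-128744326: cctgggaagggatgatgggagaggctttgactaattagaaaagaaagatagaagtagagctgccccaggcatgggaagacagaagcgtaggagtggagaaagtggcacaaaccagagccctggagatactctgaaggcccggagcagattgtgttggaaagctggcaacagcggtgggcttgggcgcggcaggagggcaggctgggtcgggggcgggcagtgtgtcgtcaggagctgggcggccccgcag
Dgka, chr10:128737613-128737862: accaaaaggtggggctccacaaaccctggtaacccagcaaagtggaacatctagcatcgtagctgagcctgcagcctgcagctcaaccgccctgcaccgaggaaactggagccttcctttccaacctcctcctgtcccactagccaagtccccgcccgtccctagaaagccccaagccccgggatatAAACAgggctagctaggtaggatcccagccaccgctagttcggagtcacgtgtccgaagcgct
The first held 2 such cores, the second held 0 and the third held 1, and 46.4% of the 32851 RefSeq windows of this length held at least 1. The stretch before the other Dgka start held 0, and so did all windows of Dgkz (2 windows), Rasgrp1 (1), Rasa2 (1) and Rasal3 (2). The longer forkhead motifs GTAAACA and CAAAACA, searched on both strands over 300 bases that include 50 after the start, were in none of the 10 member windows, against 3.65% and 6.28% of all windows. The GC content of the printed stretches went from 41.2% in the first to 60% in the second and 59.2% in the third. These are counts of letters only.

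To ask how p110δ inhibition relates to these mRNA, vehicle and PI3Kdi libraries were set against each other in either genotype. Differences are on the log2(FPKM + 0.1) scale, and calls needed a fold change over 1.5 together with an adjusted p (Benjamini-Hochberg, all 13283 genes) under 0.05. In WT CTL, Dgka was higher with PI3Kdi in 3 of 3 pairs, 1.67-, 1.83- and 2.04-fold. The log2 difference was 0.88 ± 0.22 (SE; 95% interval 0.40 to 1.35), and limma gave an adjusted p of 0.24 without a replicate block. Vehicle and PI3Kdi libraries of the same number deviated together within a genotype, and with the replicate block the same difference had an SE of 0.09 and an adjusted p of 2.30e-04, so that Dgka was called. Of the 5 members, the fit without the block called 0 in WT CTL and the block called 1, against 0.0979% and 2.57% of all genes, and the number with an unadjusted p under 0.05 was 1 and 2, against 5.14% and 23.7%. The WT and WT+PI3Kdi libraries did not overlap and were higher with PI3Kdi for Dgka, which held for 4.43% of all genes.

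In FOXO1-GFP KO CTL, Dgka was also higher with PI3Kdi in 3 of 3 pairs, 1.35-, 1.52- and 1.31-fold. The log2 difference was 0.47 ± 0.22 (95% interval 0.0014 to 0.95; adjusted p = 0.933 without the block). With the block its adjusted p was 0.00956, but its fold of 1.39 was under the threshold, so it was not called. Of the 5 members, 0 were called with or without the block, against 0.0452% of all genes without and 2.79% with it, and 1 had an unadjusted p under 0.05 without and 2 with it, against 5.17% and 29.5%. In the fit without the block, the difference was 0.73 without the vehicle library of FOXO1-GFP KO replicate 3 and 0.26 without its PI3Kdi library. Each omission left the partner library of that pair in the fit. Within the pairs the log2 ratios were 0.43, 0.60 and 0.39. A gene was higher in 3 of 3 pairs for 16.7% of all genes in WT CTL, and the share was 23.1% for FOXO1-GFP KO CTL. The response of Dgka in FOXO1-GFP KO minus that in WT CTL was -0.40 ± 0.30 on the log2 scale (95% interval -1.07 to 0.27; adjusted p = 1 without and 0.266 with the block), and it went from -0.15 to -0.61 when one or the other of those libraries was left out. Those omissions were fitted without the block. With the block, limma gave this difference of responses a 95% interval of -0.68 to -0.12 and an unadjusted p of 0.00878. By that fit 1435 of the 13283 genes had an unadjusted p under 0.05. A weaker response without FOXO1 was therefore not called over all genes by either fit, and equal responses were not shown either.

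To ask how loss of FOXO1 relates to the members, the genotypes were compared within each treatment. With PI3Kdi, Dgka was 54.9 FPKM in WT and 21.5 FPKM in FOXO1-GFP KO CTL, a 2.60-fold difference (log2 -1.38 ± 0.22; 95% interval -1.85 to -0.91; adjusted p = 0.00859). Dgka was 1 of 5 members called in this comparison, against 1.45% of all genes, and the block also called it (adjusted p = 0.00349), against 1.18%. Without PI3Kdi it was 15.6 FPKM against 29.7 FPKM in WT, a log2 difference of -0.98 ± 0.22 (95% interval -1.45 to -0.50; adjusted p = 0.106), and 0 of 5 members were called, against 0.331% of all genes, 1 having an unadjusted p under 0.05, against 6.51%. With the replicate block within genotype the adjusted p was 0.0661, again with 0 of 5 members called against 0.233% of all genes. This comparison depended on the fit, since Dgka was called with a block on the number shared by all groups (adjusted p = 0.0103), by voom with the block within genotype (0.0244) and after rescaling to the same FPKM sum (0.0489). The first of these pairs libraries across genotypes, although same-numbered libraries of the genotypes did not regularly deviate together (r = -0.39 to 0.71). The libraries of the genotypes did not overlap in either comparison and were lower in FOXO1-GFP KO, which held for 6.79% of all genes without and 7.9% with PI3Kdi.

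FOXO1-GFP KO replicate 3 stood apart for Dgka, with the highest value of its genotype under both treatments. It also had the most Foxo1 mRNA of its genotype, 1.44 FPKM without and 1.75 FPKM with PI3Kdi, and its vehicle library was the shallowest, at an estimated 12.9 M reads. Without that pair of libraries, a choice made after its values were seen, the genotype difference in Dgka was -1.23 without PI3Kdi (adjusted p = 0.0114, called) and -1.59 with it (adjusted p = 7.48e-04). Some transcripts of other cell types also moved with genotype and with PI3Kdi, and others did not. Of 10 myeloid markers, 4 were analysed here (Itgam, Cd14, Cd68 and Fcer1g), and their summed level overlapped in each comparison. The group means of that sum were 47.2 (WT), 48.2 (WT+PI3Kdi), 51.6 (FOXO1-GFP KO) and 57.1 FPKM (FOXO1-GFP KO+PI3Kdi). Cd68 and Fcer1g made up most of it, with group means of 18.1 to 23.5 and 28.9 to 33.4 FPKM. Of 12 B cell markers, 4 were analysed here (Cd79b, Ighm, Igkc and Jchain), the defining markers Ms4a1, Cd79a and Pax5 not being among them. Their summed level in WT CTL was 11.9 to 16.0 FPKM with vehicle and 16.1 to 20.8 with PI3Kdi, and in FOXO1-GFP KO CTL it was 4.55 to 6.97 with vehicle and 4.49 to 6.41 with PI3Kdi. These sums, like Dgka, were lower in both FOXO1-GFP KO groups and higher with PI3Kdi in WT CTL, without overlap, and Igkc was listed at 0 in 4 of the 6 FOXO1-GFP KO libraries. Ighm was the largest part of the WT sums, with means of 8.67 FPKM with vehicle and 12.3 FPKM with PI3Kdi. Cd79b hardly differed with PI3Kdi in WT CTL (log2 0.02, adjusted p = 0.9997 by limma without the block). The same fit called Ighm, Igkc and Jchain lower in FOXO1-GFP KO with PI3Kdi, against 1.45% of all genes. Their log2 differences were -2.38, -4.43 and -1.87 (adjusted p = 8.31e-04, 0.00249 and 0.0265), and Cd79b was not called (-0.28, adjusted p = 0.734). With the block, Jchain was not called (adjusted p = 0.0794). Without PI3Kdi, Ighm alone was called (-1.60, adjusted p = 0.0153), against 0.331% of all genes. Of 4 CD4 T cell markers, 3 were analysed here, and Cd4, at under 1 FPKM, had differences in the same directions as Dgka. Cd40lg and Zbtb7b, unlike Dgka, were lower with PI3Kdi in WT CTL (log2 -0.05 and -0.09) and in FOXO1-GFP KO CTL (-0.28 and -0.13). Like Dgka, they were lower in FOXO1-GFP KO without PI3Kdi (-0.08 and -0.20) and with it (-0.31 and -0.24), and neither was called. Cd4 was 0.44 to 0.57 FPKM in WT and 0.83 to 0.95 FPKM in WT+PI3Kdi CTL (log2 difference 0.68, adjusted p = 0.0413 with the block), and in FOXO1-GFP KO CTL it was 0.09 to 0.44 FPKM with vehicle and 0.12 to 0.51 FPKM with PI3Kdi (genotype difference with PI3Kdi -1.27, adjusted p = 0.215). The summed level of the 3 CD4 T cell markers was 6.65 to 8.24 FPKM in WT and 7.36 to 7.79 in WT+PI3Kdi CTL, and the FOXO1-GFP KO sums were 6.01 to 7.05 and 4.96 to 7.39 FPKM, which overlapped in each of the 4 comparisons. Zbtb7b made up most of these sums, with group means of 5.13 to 6.43 FPKM, so they say little of Cd4. The part of such cells in the Dgka result was not tested.

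**Figure D2:**
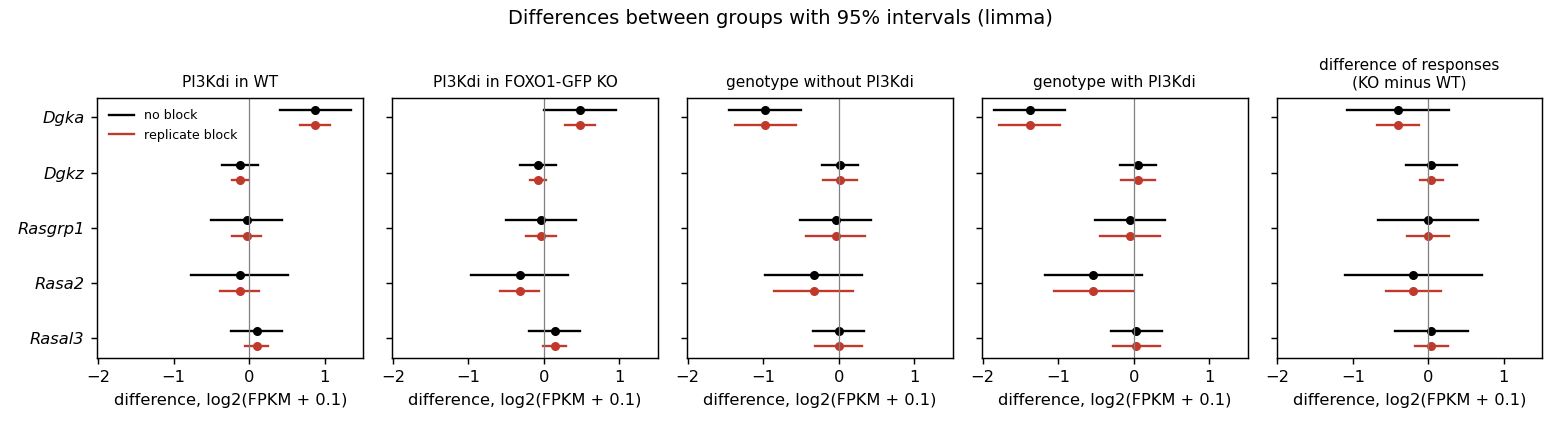
Difference of each member in the 5 comparisons, on the log2(FPKM + 0.1) scale (horizontal axes), with 95% intervals from limma without (black) and with (red) the replicate block; a value above 0 is higher with PI3Kdi in the first 2 panels, higher in FOXO1-GFP KO in the next 2, and a larger PI3Kdi response in FOXO1-GFP KO in the last. The Dgka intervals without the block exclude 0 in the first 4 panels, whereas all intervals of Dgkz, Rasgrp1, Rasa2 and Rasal3 without the block include 0.

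Dgkz, which encodes DGKζ, lies on chromosome 2 from 91932824 to 91975864 (minus strand) and was the steadiest member. It was 36.6, 38.2 and 38.98 FPKM in WT and 35.0, 33.8 and 36.0 FPKM in WT+PI3Kdi CTL. The FOXO1-GFP KO libraries held 34.5, 40.4 and 40.5 FPKM with vehicle and 31.3, 37.5 and 40.7 FPKM with PI3Kdi. In WT CTL all PI3Kdi libraries were below all vehicle libraries, which held for 5.81% of all genes, but the log2 difference was only -0.12 ± 0.11 (95% interval -0.36 to 0.12; adjusted p = 0.9997 without and 0.179 with the block). The FOXO1-GFP KO groups overlapped, with a difference of -0.08 (95% interval -0.32 to 0.16; adjusted p = 0.933). Between genotypes Dgkz differed by 0.02 without PI3Kdi (95% interval -0.22 to 0.25; adjusted p = 0.9998) and by 0.06 with it (95% interval -0.18 to 0.29; adjusted p = 0.872). The genotype differences of Dgka lay outside these intervals of Dgkz.

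In the makeup of the diacylglycerol kinase transcripts, Dgka had the widest range of the 6 genes in FPKM, and Dgkd was the other gene with a single direction over all 6 pairs of vehicle and PI3Kdi libraries. Of 10 diacylglycerol kinase genes, 6 were analysed here. Dgkz, Dgka and Dgkd (DGKδ; 12.5 to 15.6 FPKM in WT and 10.7 to 13.8 FPKM in FOXO1-GFP KO group means) made up most of their FPKM, and Dgke, Dgkq and Dgkh had group means of 0.963 to 2.82 FPKM. Dgkd was lower with PI3Kdi in 3 of 3 pairs of each genotype, at 0.713 to 0.839 times the vehicle level, and was not called (log2 difference -0.31 in WT CTL, adjusted p = 0.0775 with the block; -0.37 for FOXO1-GFP KO, adjusted p = 0.0353 with the block, its fold of 1.29 being under the threshold). In WT CTL, Dgka was 31.0, 33.7 and 34.6% of the summed level, and in WT+PI3Kdi CTL 45.4, 51.8 and 54.5%. Its share of the FOXO1-GFP KO sums was 18.4, 16.8 and 27.3%, and with PI3Kdi 25.9, 26.1 and 33.8%. Dgkz held the larger share in WT (42.3 ± 3.29%), FOXO1-GFP KO (52.0 ± 2.42%) and FOXO1-GFP KO+PI3Kdi CTL (49.1 ± 2.42%), and Dgka the larger share in WT+PI3Kdi CTL alone, where it had 1.57 ± 0.153 times the FPKM of Dgkz. The summed level of WT CTL was 90.0 ± 4.33 FPKM with vehicle and 108 ± 3.77 with PI3Kdi, and that of FOXO1-GFP KO CTL was 74.0 ± 4.56 and 74.2 ± 8.36. The WT and WT+PI3Kdi sums did not overlap, and neither did those of the genotypes, each with an exact two-sided permutation p of 0.1, the smallest that 3 against 3 allows. The sums with and without PI3Kdi overlapped in FOXO1-GFP KO CTL (exact permutation p = 1), where Dgka was higher with PI3Kdi and Dgkd and Dgkz had lower means.

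**Figure D3:**
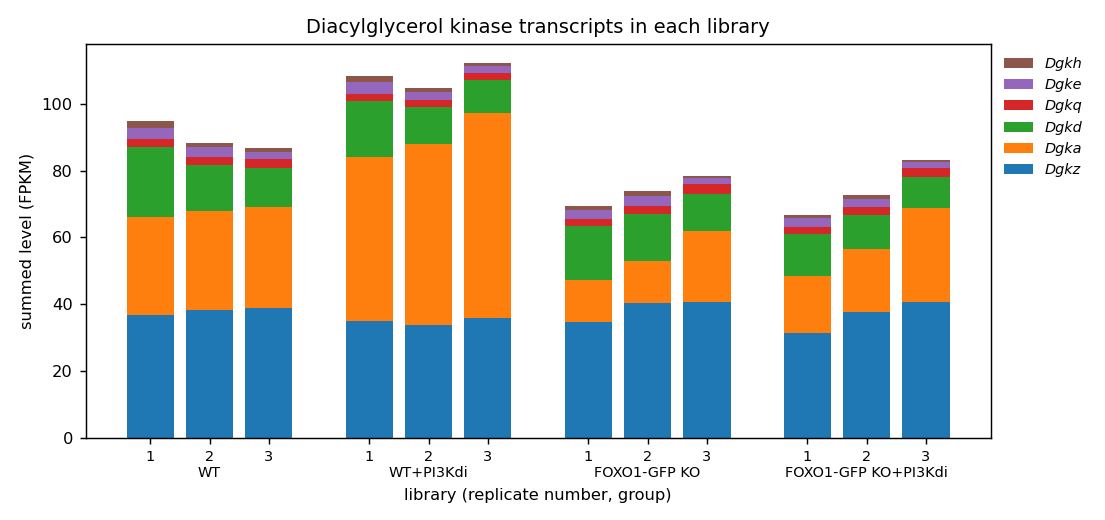
Stacked FPKM (vertical axis, from 0) of the 6 diacylglycerol kinase genes in each library, by group and replicate number. The Dgkz segment stays between 31.3 and 40.7 FPKM while the Dgka segment goes from 12.5 to 61.2 FPKM.

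Rasgrp1, the diacylglycerol-dependent Ras exchange factor of T cells, lies on chromosome 2 from 117279993 to 117343001 (minus strand). It was 67.3, 41.2 and 43.4 FPKM in WT CTL and 67.5, 39.5 and 42.0 FPKM in WT+PI3Kdi CTL. Its FOXO1-GFP KO values were 46.3, 51.3 and 46.4 FPKM with vehicle and 46.2, 43.7 and 50.2 FPKM with PI3Kdi. WT replicate 1 was the highest library under both treatments, and all 4 groups overlapped. The PI3Kdi difference was -0.03 ± 0.21 in WT (95% interval -0.50 to 0.43; adjusted p = 0.9997), and FOXO1-GFP KO CTL had -0.04 ± 0.21 (95% interval -0.51 to 0.43; adjusted p = 0.969). Within the WT pairs, PI3Kdi libraries held 1.004, 0.960 and 0.968 times the vehicle level, so that the inhibitor moved Rasgrp1 far less than the pairs differed from each other. Between genotypes the differences were -0.04 without PI3Kdi (adjusted p = 0.9998) and -0.05 with it (adjusted p = 0.939). Without WT replicate 1 in either treatment they were 0.18 and 0.19 (adjusted p = 0.755 and 0.598), so the sign rested on that pair.

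Rasgrp1 held most of the RasGRP FPKM in every library, between 61.6 and 84.5% of the FPKM of Rasgrp1, Rasgrp2 and Rasgrp4. Annotated exon length was 5600 bases for Rasgrp1, 12384 for Rasgrp2 and 6363 for Rasgrp4. A share of FPKM depends on these lengths and need not be the share of mRNA. Its share in WT CTL was 76.9 ± 6.74% with vehicle and 69.1 ± 9.42% with PI3Kdi, and FOXO1-GFP KO CTL had 80.0 ± 4.18% and 69.3 ± 4.84%. The share was lower with PI3Kdi in each of the 6 pairs, and in FOXO1-GFP KO CTL the groups did not overlap (exact permutation p = 0.1, the smallest possible). The paralogs that share this sum were higher with PI3Kdi in 3 of 3 pairs of each genotype. Rasgrp4, another diacylglycerol-responsive exchange factor, went from 6.40, 7.47 and 11.2 FPKM in FOXO1-GFP KO to 10.99, 17.0 and 17.8 FPKM with PI3Kdi. The log2 difference was 0.87 (adjusted p = 0.627 without and 0.00153 with the replicate block, which called it). In WT CTL the Rasgrp4 pairs rose 1.35-, 1.44- and 1.53-fold, a log2 difference of 0.52 that was under the fold threshold. The difference of its responses was not called by either fit. Rasgrp2, a calcium-responsive exchange factor that acts mainly on Rap, had differences of 0.55 (WT CTL) and 0.57 (FOXO1-GFP KO CTL) and was not called in either, since with the block its adjusted p (0.00162 and 0.00184) passed and its fold (1.47 and 1.48) did not. Of the 8 exchange factor genes listed, 6 were analysed here, namely the 3 RasGRP genes, Sos1, Sos2 and Rasgrf2. Without the block 0 were called in any comparison, against 0 to 1.45% of all genes. For PI3Kdi, 1 (WT) and 2 (FOXO1-GFP KO) had an unadjusted p under 0.05, against 5.14% and 5.17% of all genes. With the block there were 2 and 2, against 23.7% and 29.5%.

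The ratio of summed diacylglycerol kinase FPKM to Rasgrp1 FPKM sets the lipid brakes beside the lipid-driven activator. It was 1.41, 2.15 and 2.00 in WT and 1.60, 2.65 and 2.67 in WT+PI3Kdi CTL. In FOXO1-GFP KO CTL it was 1.499, 1.44 and 1.69, and with PI3Kdi 1.44, 1.66 and 1.66. The WT values were higher with PI3Kdi in 3 of 3 pairs, but the groups overlapped (exact permutation p = 0.3), since WT replicate 1 with its high Rasgrp1 lay below the others under both treatments. Between genotypes the ratio also overlapped, with an exact permutation p of 0.4 without and 0.3 with PI3Kdi.

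Rasal3, a Ras GTPase-activating protein of blood cells, lies on chromosome 17 from 32390659 to 32403583 (minus strand). It was 53.5, 53.2 and 61.0 FPKM in WT and 60.9, 51.4 and 68.3 FPKM in WT+PI3Kdi CTL. The FOXO1-GFP KO values were 48.3, 57.3 and 62.2 FPKM with vehicle and 50.5, 61.7 and 73.9 FPKM with PI3Kdi. All 4 groups overlapped. The PI3Kdi differences were 0.10 ± 0.15 in WT (95% interval -0.24 to 0.44; adjusted p = 0.9997), and FOXO1-GFP KO CTL had 0.14 ± 0.15 (95% interval -0.20 to 0.48; adjusted p = 0.933). The genotype differences were -0.0036 without PI3Kdi (95% interval -0.34 to 0.34) and 0.04 with it (95% interval -0.30 to 0.38), with adjusted p of 0.9998 and 0.939. An antisense transcript, CT485616.1, overlaps 6806 bases of the gene and reached at most 1.49 FPKM, and the strand setting of the counting is not given in the sources used here.

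Rasa2, a Ras GTPase-activating protein that limits T cell receptor signalling, lies on chromosome 9 from 96539300 to 96631617 (minus strand). It was 7.22, 4.66 and 3.91 FPKM in WT and 6.50, 4.26 and 3.64 FPKM in WT+PI3Kdi CTL. The vehicle libraries of FOXO1-GFP KO had 4.61, 4.52 and 3.11 FPKM, and their PI3Kdi partners 4.14, 3.39 and 2.31 FPKM. Rasa2 was lower with PI3Kdi in 3 of 3 pairs of each genotype, against 29.5% (WT) and 26.4% (FOXO1-GFP KO) of all genes. The log2 differences were -0.13 ± 0.29 (adjusted p = 0.9997 without and 0.563 with the block) and -0.32 ± 0.29 (adjusted p = 0.933 and 0.0972). Between genotypes it differed by -0.33 without PI3Kdi (adjusted p = 0.9998) and by -0.53 with it (95% interval -1.17 to 0.11; adjusted p = 0.614). Without WT pair 1 these were -0.085 and -0.29, and without FOXO1-GFP KO pair 3 -0.15 and -0.31. The standard errors of Rasa2 were the largest of the members.

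All 10 Ras GTPase-activating protein genes listed were analysed. Rasal3 made up 50.7 to 57.2% of their FPKM and Rasa2 3.13 to 5.03%, as group means, and the shares of both overlapped between all groups compared. The gene called among them was Rasa3, which encodes a GTPase-activating protein for Ras and Rap1. It was called between genotypes with PI3Kdi, a comparison that called 1.45% of all genes. Rasa3 was 25.6, 20.8 and 21.7 FPKM in WT and 35.3, 29.8 and 34.6 FPKM in WT+PI3Kdi CTL. FOXO1-GFP KO CTL held 20.02, 18.8 and 18.5 FPKM with vehicle and 21.6, 22.8 and 21.1 FPKM with PI3Kdi. With PI3Kdi, FOXO1-GFP KO CTL had less of it than WT CTL, by -0.60 on the log2 scale (1.52-fold, just over the threshold; adjusted p = 0.0129). The call was lost in 4 of 12 fits without a single library, each of them a PI3Kdi library (replicates 1 and 3 of either genotype), and in 5 of the 12 other alternatives, with differences of -0.68 to -0.55 over all of them. Like those of Dgka, its PI3Kdi and vehicle libraries did not overlap in WT CTL and were higher with PI3Kdi, which held for 4.43% of all genes. The difference there, 0.55, was under the fold threshold (adjusted p = 0.0916 without and 1.82e-04 with the block). In FOXO1-GFP KO CTL they did not overlap either, unlike those of Dgka. They were higher with PI3Kdi in 3 of 3 pairs (log2 0.19), against 23.1% of all genes. With vehicle, the Rasa3 libraries were lower in FOXO1-GFP KO without overlap, against 6.79% of all genes. Its response in FOXO1-GFP KO minus that in WT CTL was -0.36 (adjusted p = 1 without and 0.0966 with the block).

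**Figure D4:**
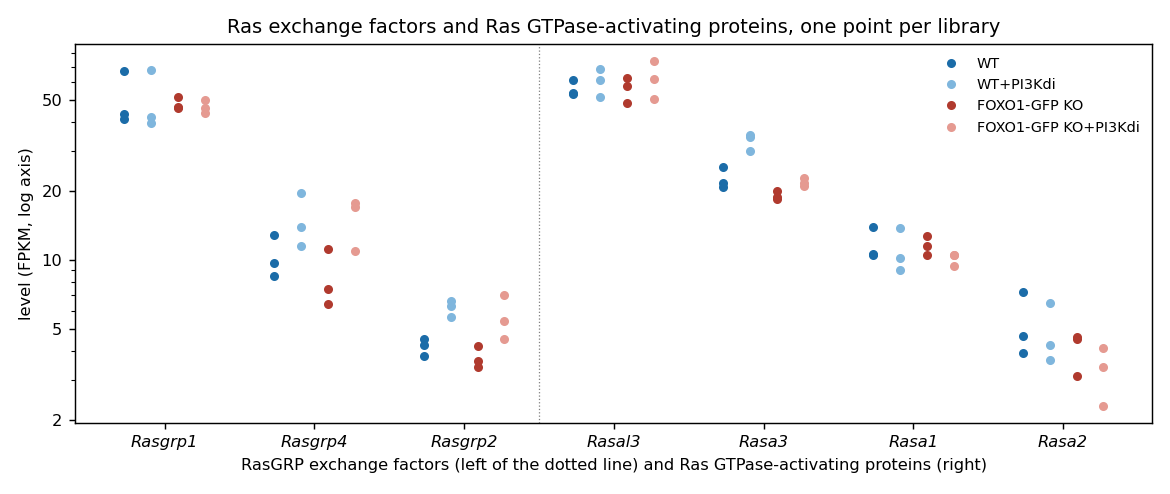
Level of RasGRP exchange factors and of the more abundant Ras GTPase-activating proteins, with Rasa2, in FPKM on a log axis, with 1 point per library and colours for the 4 groups. Rasgrp1 and Rasal3 overlap across all groups, whereas the WT+PI3Kdi points of Rasa3 (29.8 to 35.3 FPKM) lie above those of every other group.

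The wider pathway was described by 7 lists that also hold Ras GTPases, the RAF-MEK-ERK cascade, diacylglycerol-binding kinases and enzymes that make or use diacylglycerol and phosphatidic acid. Of 66 listed genes, 54 were analysed. Without the block, 0 of the 54 were called for PI3Kdi in either genotype, against 0.0979% (WT) and 0.0452% (FOXO1-GFP KO) of all genes. At an unadjusted p under 0.05 there were 6 (WT) and 3 (FOXO1-GFP KO), against 5.14% and 5.17% of all genes. With the block these counts were 24 and 20 of the 54, against 23.7% and 29.5% of all genes. The genotype comparison called 0 with vehicle, against 0.331% of all genes, and 7 had an unadjusted p under 0.05 there, against 6.51%. With PI3Kdi it called 2, Dgka and Rasa3, both lower, against 1.45% of all genes. With the block the counts of called genes were 1 (Dgka, higher), 1 (Rasgrp4, higher), 0 and 2 (Dgka and Rasa3, lower). The shares of all genes were 2.57%, 2.79%, 0.233% and 1.18%. For the difference of the responses 0 of 54 were called by either fit, against 0% of all genes without and 0.0226% with the block. The 5 Ras GTPases, 9 cascade genes, 8 diacylglycerol-binding kinases and 10 diacylglycerol and phosphatidic acid enzymes gave 0 calls in any comparison by these fits. The median log2 difference of the 54 genes was between -0.09 and -0.02 in the 5 comparisons, beside -0.04 to 0.02 for all genes.

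The members also differed in where their variation lay. For Dgka, 65.4% of the sum of squares over the 12 libraries lay between genotypes, 21.6% followed the inhibitor and 10.6% lay between the pairs of a genotype. For Rasgrp1, 94.0% lay between the pairs of a genotype, and the share was 80.9% for Rasal3, 71.1% for Dgkz and 62.5% for Rasa2. Genotype held 27.5% of the variation of Rasa2 and at most 2.57% of that of Dgkz, Rasgrp1 and Rasal3. These shares describe the 12 libraries and were not tested.

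**Figure D5:**
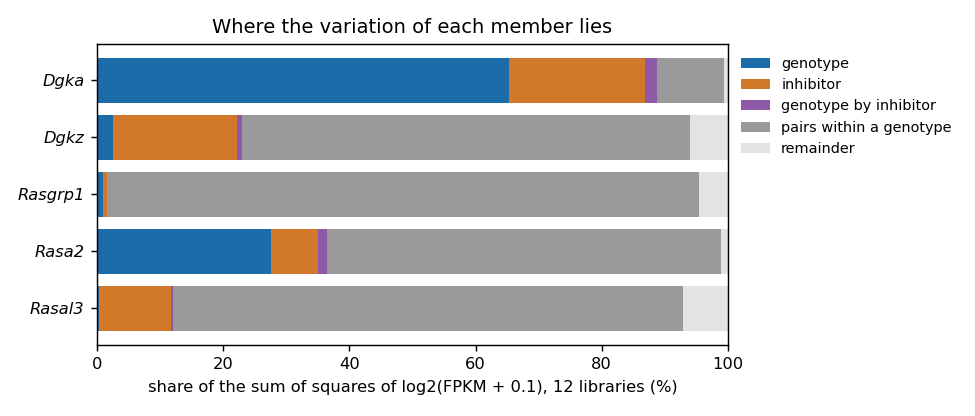
Share of the sum of squares of log2(FPKM + 0.1) over the 12 libraries (horizontal axis, percent) that lay between genotypes, with the inhibitor, with their combination, between vehicle and PI3Kdi pairs within a genotype, and in the remainder. Genotype is the largest part for Dgka (65.4%) and pairs within a genotype the largest for the other members (62.5 to 94.0%).

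The profiles of the 5 members over the 12 libraries were largely unlike each other, Pearson's r of log2(FPKM + 0.1) being between -0.59 (Rasa2 and Rasal3) and 0.60 (Dgkz and Rasal3). Of 9766 other genes whose mean reached 1 FPKM in some group, the profile of Dgka was most like those of Septin6 (r = 0.99), Epsti1 (r = 0.97) and Plekhg2 (r = 0.97). For Dgkz these were Gdpd5, Slc27a1 and Tango2 (r = 0.90 to 0.93), and for Rasgrp1 Marf1, Brip1 and Nr3c1 (r = 0.95 to 0.97). For Rasa2 they were Tox4, Fasn and Alg11 (r = 0.98), and for Rasal3 Rnf31, Sh2b1 and N4bp3 (r = 0.96 to 0.97). Septin6 had a narrower range than Dgka, with WT group means of 27.8 FPKM with vehicle and 31.0 FPKM with PI3Kdi and FOXO1-GFP KO group means of 25.2 and 26.7 FPKM. All these values come from the same 12 libraries, share their depth and scaling, and are the highest of many compared.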

How the data were processed

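RNA of 12 libraries was prepared from 300 ng of input with a stranded kit and sequenced in pairs. The authors aligned reads with STAR 2.7.1a to GRCm38.p6, counted reads per Ensembl gene, filtered low genes (filterByExpr of edgeR), applied TMM scaling and deposited FPKM rounded to 2 decimals for 13283 genes. FPKM are not counts, so the study's limma voom test was replaced by a limma 3.58.1 (R 4.3.3) fit to log2(FPKM + 0.1) of all genes, with a mean for each of 4 groups, with empirical Bayes and a mean-variance trend; a low gene's change is understated on this scale. Tests were two-sided. The step between low FPKM values of short genes gave the depth of each library (95.1 to 98.4% of held-out values were whole reads, within rounding and 0.02 reads, against 11.5 to 32.2% by chance). The study describes 3 biological replicates for each condition, labelled BR1 to BR3. Labels do not say whether these replicates came from separate mice, so p-values cover the spread between these libraries. Same-numbered vehicle and PI3Kdi libraries deviated together in each genotype (r = 0.58 to 0.82 over 10700 genes in WT and 0.59 to 0.76 in FOXO1-GFP KO), but not across genotypes (-0.39 to 0.71), so the replicate block was set within genotype; fits were tested on simulated data. Members, gene lists, named genes and tests were chosen with earlier results of these data known, so their p-values describe the members and are not independent evidence. Named genes were the members, Foxo1, pathway genes called by either fit, the other genes of the 3 families, and the 3 genes most like each member, predicted genes excluded. Positions came from GENCODE M21 and promoters from RefSeq. The table held 0 columns of other samples.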

Additional observations from a re-analysis of the deposited data

How the results depend on the processing

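The genotype difference of Dgka with PI3Kdi kept its direction and its call under every alternative tried, at -1.59 to -1.34, and at -1.59 to -1.24 when single libraries were left out. Where 1 pathway gene is given, it was Dgka, except Rasgrp4 for PI3Kdi in FOXO1-GFP KO CTL; Rasa3 was the call lost for genotype with PI3Kdi. The replicate block within genotype (adjusted p for Dgka in WT CTL 2.30e-04) called 342 mRNA for PI3Kdi in WT CTL and 370 in its FOXO1-GFP KO counterpart, 1 pathway gene in each, and 3 mRNA for the difference of the responses; it changed no other call among the pathway genes. A block on the number shared by all groups called 99 and 42 mRNA for PI3Kdi (WT, then FOXO1-GFP KO) and 178 and 440 for genotype (without, then with PI3Kdi), with 1 pathway gene in each of the first 3. Voom on estimated reads called 22 mRNA for PI3Kdi in WT CTL; with the block it called 356 there and 446 for FOXO1-GFP KO, with 1 pathway gene in each, 1 pathway gene for genotype without PI3Kdi, and 6 mRNA for the difference of the responses. Libraries rescaled to the same FPKM sum gave 5 and 0 mRNA for PI3Kdi and 1 pathway gene in each genotype comparison. Fits over the compared groups alone gave 0, 0, 0 and 94 mRNA, with 1 pathway gene for genotype with PI3Kdi, where a pseudocount of 1 FPKM also gave 1. With WT pair 1 left out, 8 mRNA were called for PI3Kdi in WT CTL and 23 for genotype without PI3Kdi, and 1 pathway gene for genotype with it. With FOXO1-GFP KO pair 3 left out, 1 pathway gene was called for PI3Kdi in WT CTL, 1 for genotype without PI3Kdi and 1 with it, beside 0 mRNA for PI3Kdi in FOXO1-GFP KO and 17 and 114 for genotype. Both omissions were chosen after the data were seen. Leaving out single libraries gave 1 to 10 (WT) and 0 to 4 (FOXO1-GFP KO) mRNA for PI3Kdi, 8 to 41 and 111 to 196 for genotype without and with PI3Kdi, and 0 to 1 and 1 to 2 pathway genes for the latter 2. Single-library omissions moved the Dgka difference for PI3Kdi in FOXO1-GFP KO CTL between 0.26 and 0.73 and the difference of its responses between -0.61 and -0.15, not called in any. These fits had no block, and each omission broke a pair. Without FOXO1-GFP KO replicate 3, Dgka was called for genotype without PI3Kdi (-1.23, adjusted p = 0.033).

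Of 25 member differences, 14 changed sign under some alternative, none of them called before or after (lowest adjusted p after the change 0.598). Rescaling to the same FPKM sum gave genotype differences of -0.019 without and -0.026 with PI3Kdi for Dgkz and -0.046 with it for Rasal3, and differences of responses of -0.0067 and -0.0059. Quantile normalization gave 0.0080 for Rasal3 between genotypes without PI3Kdi. Without WT pair 1, the genotype difference was -0.0083 for Dgkz without PI3Kdi, and Rasgrp1 had 0.18, 0.19 and, for the difference of responses, 0.013. Without FOXO1-GFP KO pair 3, Dgkz had -0.022, -0.027 and -0.0045, and Rasal3 -0.098 with PI3Kdi and -0.015 for the difference of responses. Single-library omissions gave Dgkz -0.16 to 0.026 for PI3Kdi in FOXO1-GFP KO CTL, -0.022 to 0.093 and -0.027 to 0.16 for genotype without and with PI3Kdi, and -0.044 to 0.15 for the difference of responses. Rasa2 had -0.36 to 0.12 for PI3Kdi in WT CTL and -0.45 to 0.038 for the difference of responses. Rasal3 had -0.084 to 0.098 and -0.098 to 0.18 for genotype and -0.095 to 0.18 for the difference of responses. Rasgrp1 had -0.28 to 0.19 (WT) and -0.093 to 0.0085 (FOXO1-GFP KO) for PI3Kdi, -0.17 to 0.18 and -0.19 to 0.19 for genotype and -0.23 to 0.24 for the difference of responses. The causes were not tested.

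With only the 3 most abundant genes of a family in the sum, Dgka was 35.8% of diacylglycerol kinase FPKM in WT, Dgkz 45.7, 34.1, 56.7 and 53.2%, and Rasal3 62.0, 57.6, 64.4 and 65.6% of GTPase-activating protein FPKM in the order WT, WT+PI3Kdi, FOXO1-GFP KO and FOXO1-GFP KO+PI3Kdi, which follows from the smaller sum. With 3 libraries a group, the spread between libraries limits what can be seen of Rasgrp1 and Rasa2. Depth limits less, since each member value rested on at least an estimated 634 reads.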
